A study of Arabidopsis thaliana with 21 samples.

Results

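The 10 XTH genes described here were followed in Arabidopsis thaliana from the dry seed to the young seedling. They are XTH2 (AT4G13090), XTH4 (AT2G06850), XTH5 (AT5G13870), XTH9 (AT4G03210), XTH15 (AT4G14130), XTH16 (AT3G23730), XTH18 (AT4G30280), XTH19 (AT4G30290), XTH31 (AT3G44990) and XTH33 (AT1G10550). They were chosen by name from the XTHs other than those of root hairs, with earlier results of these data known. Another 19 such genes were not among them and are counted below as other XTHs. Shares of all genes beside the counts of the 10 are therefore a description. A gene's value was the average of the probe sets of its locus. All 10 were measured, out of 27789 genes on the arrays and 33 genes of the family. None of them had a probe set with values identical to those of another locus, and the 2 probe sets of XTH9 carried identical values. Whether the probes also detect transcripts of close paralogs was not checked.

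Xyloglucan is a hemicellulose that coats and tethers cellulose in the growing wall of most dicots. XTH enzymes cut its backbone and either rejoin the cut end to another xyloglucan chain (endotransglucosylation) or release it to water (hydrolysis). They act together with expansins, which loosen the wall without cutting it, and with glycosidases that trim the side chains. Growth of the embryo by cell elongation, first of the radicle and lower hypocotyl and later of the whole seedling, needs such remodelling.

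The study measured transcripts in cultivar Col-0 on 21 arrays at 7 stages, with 3 biological replicates per stage. Each replicate pooled the seeds of several plants. The stages were dry mature seed (DS), 6 h of imbibition (6H), testa rupture (TR), radicle protrusion (RP), root hair formation (RH), greening cotyledons (GC) and opened cotyledons (OC). Per the labels, seeds were stratified for 72 h at 4 °C and moved to constant white light at 22 °C, and 3000 seeds or seedlings were picked for each stage. The labels do not say what the 6 h are counted from. Water uptake, cold and light can therefore not be told apart in the step from DS to 6H. Whole seeds and seedlings were sampled, so fewer cells of a type and less RNA per cell cannot be told apart in any value below.

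Levels are stage means of the deposited log2 values (RMA, a background-corrected, quantile-normalised summary of the probes), given with the SD of 3 arrays. A level below 3.47, the 30th percentile of all values, was read as near the signal floor, and a change from or to it as a lower bound. Changes are differences of stage means on the log2 scale, later stage minus earlier stage, ± the standard error from limma. A gene rose or fell where its Benjamini-Hochberg adjusted p over all genes was under 0.05. Levels of different genes come from different probes and were not compared.

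The stage labels were checked with 3 genes. The cruciferin gene CRA1 stood at 6.31 ± 0.81 at OC and 12.25 ± 0.05 in DS, the root hair expansin gene EXPA7 at 8.18 ± 0.09 at RH and 3.98 ± 0.38 at RP, and LHCB1.1 (CAB2), of the light-harvesting antenna, at 6.35 ± 0.35 at GC and 3.56 ± 0.34 at RH. Arrays of the same stage correlated across genes with a Pearson r of at least 0.981. DS replicate 2 was the highest of the DS arrays for 8 of the 10 XTHs, and 6H replicate 1 the highest of the 6H arrays for 9 of 10. Without these 2 arrays together the counts of XTHs changed at least 2-fold in each step were the same as with them, and on the adjusted p alone 9 of the 70 changes passed that did not pass with them.

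All 10 genes passed limma's F test over the series and had stage means spread by 1 or more, as did 66.4% of all genes. The ranges ran from 2.50 for XTH2 to 6.57 for XTH4, with a median of 5.65 against 1.47 over all genes. The stage mean was lowest in DS for 8 genes, at OC for XTH5 and at 6H for XTH2. The share of all genes lowest at each stage was not counted. It was highest at TR for XTH5, XTH19, XTH31 and XTH33, at RP for XTH9, XTH15 and XTH16, at RH for XTH2, at GC for XTH18 and at OC for XTH4. Among all genes measured, 5.57% passed the same test with their maximum at TR and 3.79% with it at RP. The share was 4.58% at RH, 5.15% at GC and 14.8% at OC. For DS and 6H, where none of the 10 had its maximum, it was 18.8% and 13.7%.

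**Figure D1:**
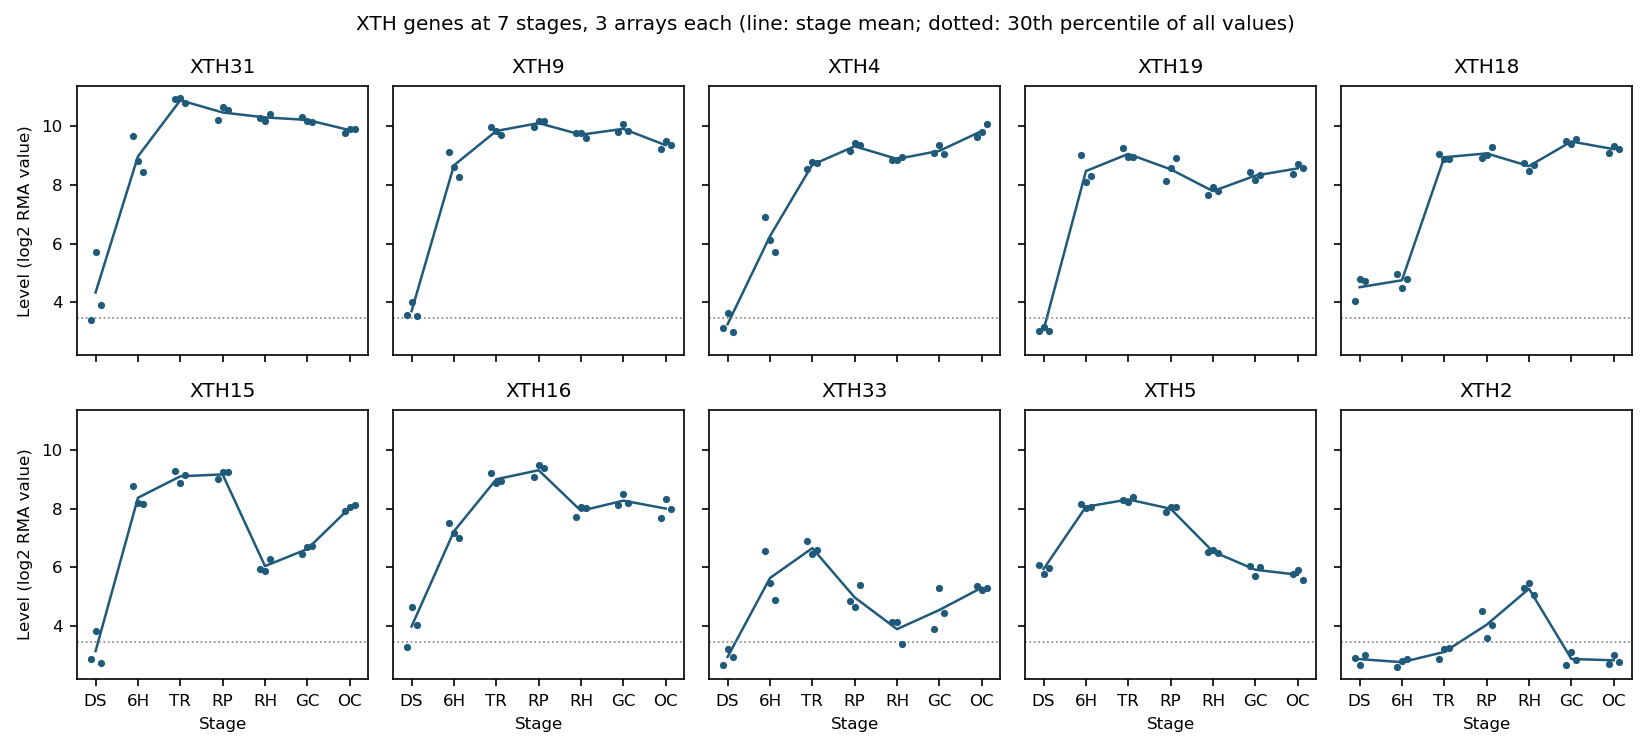
Level of each of the 10 XTH genes (log2 RMA value, vertical axis) at the 7 stages (horizontal axis). Points are the 3 arrays of a stage, lines join stage means, and the dotted line is the 30th percentile of all values, 3.47. Most genes stand higher at 6H than in DS, XTH18 does so only at TR, and XTH2 rises above the line at RP and RH alone.

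Most of the 10 genes rose from DS to 6H and again by testa rupture. From DS to 6H, 8 of the 10 genes rose at least 2-fold and none fell. Over all genes 14.6% rose and 10.7% fell at least 2-fold (25.3% in all), and on the adjusted p alone 29.6% rose and 40% fell. The median change was 3.11 for the 10 genes and -0.23 over all genes. XTH4, XTH15, XTH19 and XTH33 had DS means below the floor, so their rises from DS, here and below, are lower bounds. By TR 6 rose at least 2-fold over 6H and none fell, against 9.8% and 7.34% of all genes (17.1% in all), and XTH15 and XTH19 rose by less, which makes 8 rises on the adjusted p alone against 22.2% of all genes that rose and 26.2% that fell.

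The later steps held fewer changes and in both directions. At RP, against TR, XTH33 fell at least 2-fold (3.11% of all genes changed, 2.34% rising and 0.766% falling), and XTH2 rose by less, where 7.83% of all genes rose and 7.45% fell on the adjusted p alone. At RH, against RP, XTH5, XTH15, XTH16 and XTH33 fell and XTH2 rose at least 2-fold, against 1.74% and 3.65% of all genes (5.39% in all), and XTH19 fell by less, where 11.5% rose and 11.9% fell on the adjusted p alone. At GC, against RH, XTH2 alone changed at least 2-fold, downward (3.57% of all genes changed, 2.6% rising and 0.972% falling), XTH5 fell and XTH18 rose by less, and 10.1% of all genes rose and 10.9% fell on the adjusted p alone. At OC, against GC, XTH15 rose at least 2-fold (8.43% of all genes changed, 5.41% rising and 3.02% falling), XTH4 rose and XTH9 fell by less, and 16.1% rose and 17.9% fell on the adjusted p alone. From DS to OC 8 of 10 rose at least 2-fold, with a median of 4.79, where 23.1% of all genes rose and 21.6% fell (44.7% in all), and 33.2% and 42.4% did so on the adjusted p alone.

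**Figure D2:**
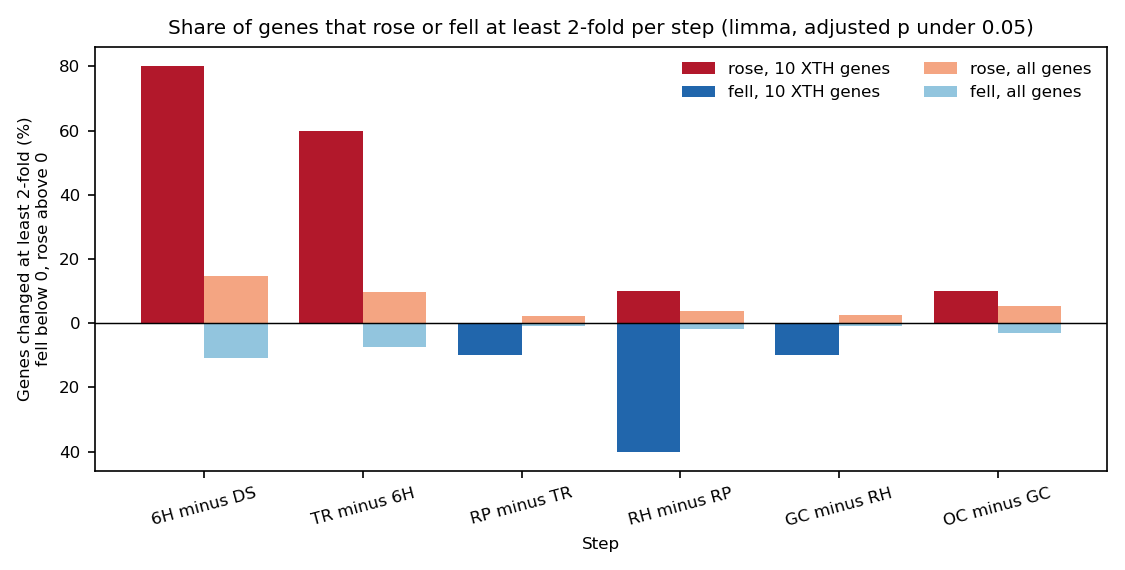
Share of genes (%, vertical axis) that rose (above 0) or fell (below 0) at least 2-fold in each of the 6 steps (horizontal axis), for the 10 XTH genes (dark bars, left) and for all 27789 genes (pale bars, right). One XTH gene makes 10% of the dark bars, which stand highest above 0 in the first 2 steps and lowest below 0 from RP to RH.

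**Figure D3:**
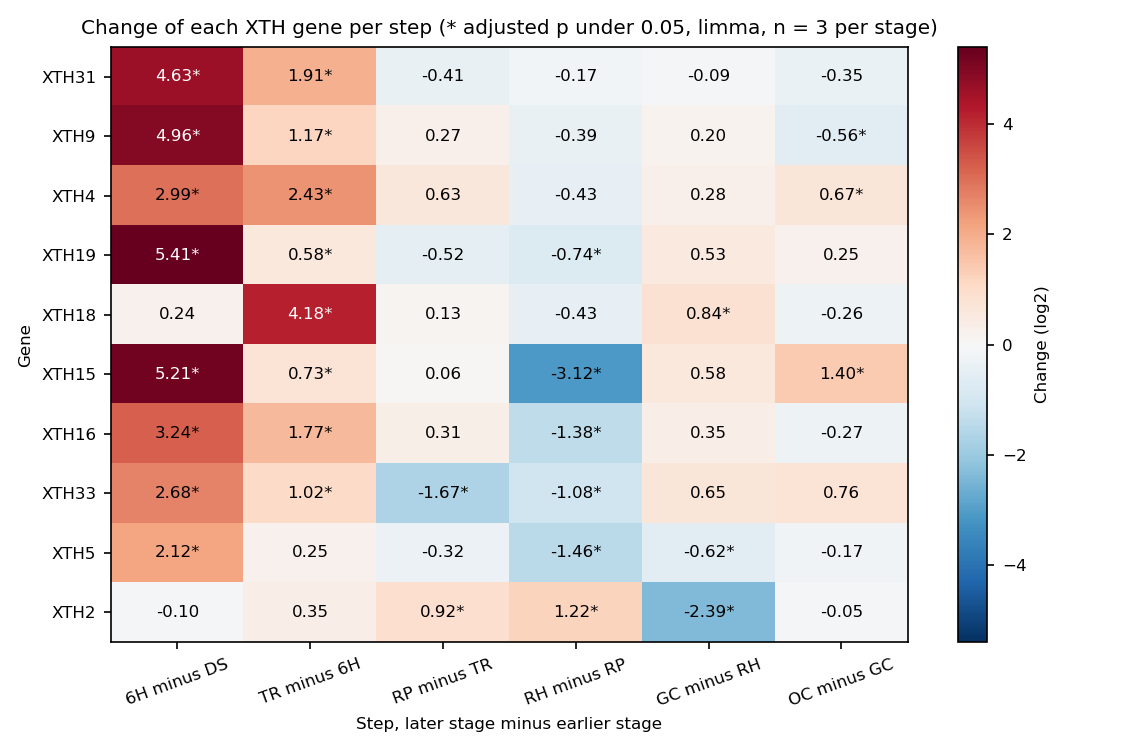
Change (log2, later stage minus earlier stage, colour and number) of the 10 XTH genes (rows) in the 6 steps (columns), with an asterisk at an adjusted p under 0.05 in limma, n = 3 per stage. The first column is positive and marked for 8 genes, and the column from RP to RH is negative and marked for XTH19, XTH15, XTH16, XTH33 and XTH5.

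XTH31, whose Arabidopsis enzyme is known mainly for xyloglucan hydrolysis, rose early and stayed high. Its 3 arrays read 3.40, 5.70 and 3.92 in DS, 9.67, 8.81 and 8.42 at 6H, 10.90, 10.95 and 10.78 at TR, 10.20, 10.64 and 10.54 at RP, 10.28, 10.17 and 10.42 at RH, 10.32, 10.16 and 10.14 at GC and 9.77, 9.89 and 9.92 at OC. The DS and 6H arrays did not overlap although DS replicate 2 stood well above the other two. The gene rose by 4.63 ± 0.38 to 6H (24.7-fold, adjusted p = 1.7e-09) and by 1.91 ± 0.38 to TR (adjusted p = 0.00024), and without DS replicate 2 the first rise was 5.31. In the order TR, RP, RH, GC, OC no neighbouring pair differed (adjusted p from 0.54 to 0.92), while OC stood below TR (-1.02 ± 0.38, adjusted p = 0.025) and above 6H (0.89 ± 0.38, adjusted p = 0.042).

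XTH9, an XTH linked to stem elongation, followed a like course over the 7 stage means (Pearson r with XTH31 0.993, n = 7 stage means that share the same arrays). Its arrays read 3.57, 4.03 and 3.53 in DS, 9.11, 8.61 and 8.27 at 6H, 9.95, 9.84 and 9.70 at TR, 9.96, 10.18 and 10.16 at RP, 9.75, 9.76 and 9.61 at RH, 9.79, 10.08 and 9.84 at GC and 9.20, 9.49 and 9.34 at OC. After the steep rise to 6H every later array stood between 9.20 and 10.18. XTH9 rose by 4.96 ± 0.17 to 6H (31.0-fold, adjusted p = 1.1e-14) and by 1.17 ± 0.17 to TR, and it fell by 0.56 ± 0.17 from GC to OC (adjusted p = 0.016). That fall did not pass after a further quantile normalisation (-0.47), on arrays centred on reference genes (-0.39), or without GC replicate 2 (-0.47) or OC replicate 1 (-0.49).

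XTH4, an endotransglucosylase gene of growing and vascular tissues, rose in 2 large steps and was the only one of the 10 with its highest mean at OC. Its arrays read 3.14, 3.66 and 2.99 in DS, 6.89, 6.13 and 5.73 at 6H, 8.53, 8.78 and 8.74 at TR, 9.16, 9.41 and 9.36 at RP, 8.86, 8.84 and 8.94 at RH, 9.07, 9.35 and 9.05 at GC and 9.63, 9.81 and 10.05 at OC. All OC arrays lay above all arrays of every other stage. XTH4 rose by 2.99 ± 0.22 to 6H (7.95-fold) and by 2.43 ± 0.22 to TR (5.39-fold, adjusted p = 1.2e-08), and by 0.67 ± 0.22 from GC to OC (adjusted p = 0.019). The last rise did not pass without GC replicate 1 (0.63), GC replicate 3 (0.62) or OC replicate 3 (0.56). The levels at RP, GC, RH and TR, in that order, did not differ between neighbours.

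XTH15 and XTH16, a close pair whose transcripts are known to respond to shade, dropped at root hair formation. XTH15 read 2.88, 3.82 and 2.76 in DS, 8.76, 8.18 and 8.16 at 6H, 9.29, 8.87 and 9.13 at TR, 9.01, 9.24 and 9.23 at RP, 5.96, 5.88 and 6.29 at RH, 6.45, 6.69 and 6.73 at GC and 7.90, 8.07 and 8.11 at OC. No RH or GC array reached any array of 6H, TR, RP or OC. XTH15 rose by 5.21 ± 0.22 to 6H (37.1-fold), fell by 3.12 ± 0.22 from RP to RH (8.68-fold, adjusted p = 1.7e-09) and rose by 1.40 ± 0.22 from GC to OC (adjusted p = 4e-05).

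XTH16 read 3.28, 4.67 and 4.03 in DS, 7.52, 7.17 and 6.99 at 6H, 9.21, 8.86 and 8.93 at TR, 9.06, 9.47 and 9.38 at RP, 7.71, 8.05 and 8.0 at RH, 8.12, 8.50 and 8.18 at GC and 7.69, 8.31 and 8.0 at OC. It fell by 1.38 ± 0.25 from RP to RH (adjusted p = 0.00032), and the RP and RH arrays did not overlap. Its change from GC to OC, where XTH15 rose, was -0.27 ± 0.25 (adjusted p = 0.46), and GC, OC and RH did not differ between neighbours in that order. Whether the 2 genes' changes differ was not tested.

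XTH18 and XTH19 lie next to each other on chromosome 4 in the TAIR10.1 reference table and belong to the root XTH17 to XTH20 subgroup, yet they started to rise at different stages. XTH19 read 3.02, 3.15 and 3.03 in DS, 9.01, 8.09 and 8.32 at 6H, 9.27, 8.96 and 8.93 at TR, 8.12, 8.56 and 8.90 at RP, 7.65, 7.92 and 7.78 at RH, 8.44, 8.16 and 8.34 at GC and 8.38, 8.71 and 8.59 at OC. XTH18 read 4.05, 4.79 and 4.72 in DS, 4.96, 4.50 and 4.81 at 6H, 9.06, 8.86 and 8.89 at TR, 8.92, 9.02 and 9.27 at RP, 8.74, 8.48 and 8.68 at RH, 9.48, 9.38 and 9.56 at GC and 9.10, 9.32 and 9.22 at OC. At 6H all XTH19 arrays had left the DS range, whereas the 6H and DS arrays of XTH18 overlapped.

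From DS to 6H XTH19 rose by 5.41 ± 0.20 (42.4-fold, adjusted p = 2.6e-14). XTH18 changed by 0.24 ± 0.16 (95% interval -0.11 to 0.58, adjusted p = 0.2) and had a sign that turned with the scaling. From 6H to TR XTH18 rose by 4.18 ± 0.16 (18.2-fold, adjusted p = 1.5e-13) and XTH19 by 0.58 ± 0.20 (adjusted p = 0.02), where the TR and 6H arrays of XTH19 overlapped. That XTH19 rise did not pass without 6H replicate 2 (0.39), 6H replicate 3 (0.50) or TR replicate 1 (0.47). XTH19 fell by 0.74 ± 0.20 from RP to RH (adjusted p = 0.0092), though not without RP replicate 3 (-0.56), and XTH18 rose by 0.84 ± 0.16 from RH to GC (adjusted p = 0.001). The difference between the 2 courses was not tested as such, and their Pearson r over the 7 stage means was 0.657.

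XTH24, the gene on the other side of XTH18 and an early-named meristem XTH, stood at 3.54 ± 0.63 in DS, 2.88 ± 0.12 at 6H, 6.26 ± 0.40 at TR and 7.74 ± 0.18 at RP. It fell by 0.66 ± 0.23 from DS to 6H (adjusted p = 0.015), rose by 3.38 ± 0.23 from 6H to TR (adjusted p = 2e-10) and rose by 1.47 ± 0.23 from TR to RP. The fall ended below the floor, with arrays of 3.07, 4.25 and 3.30 in DS and 3.02, 2.81 and 2.82 at 6H. DS replicate 2 was again the highest, and the fall of XTH24 without it was not examined. Of the 3 adjacent genes XTH19 alone rose in the step to 6H.

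**Figure D4:**
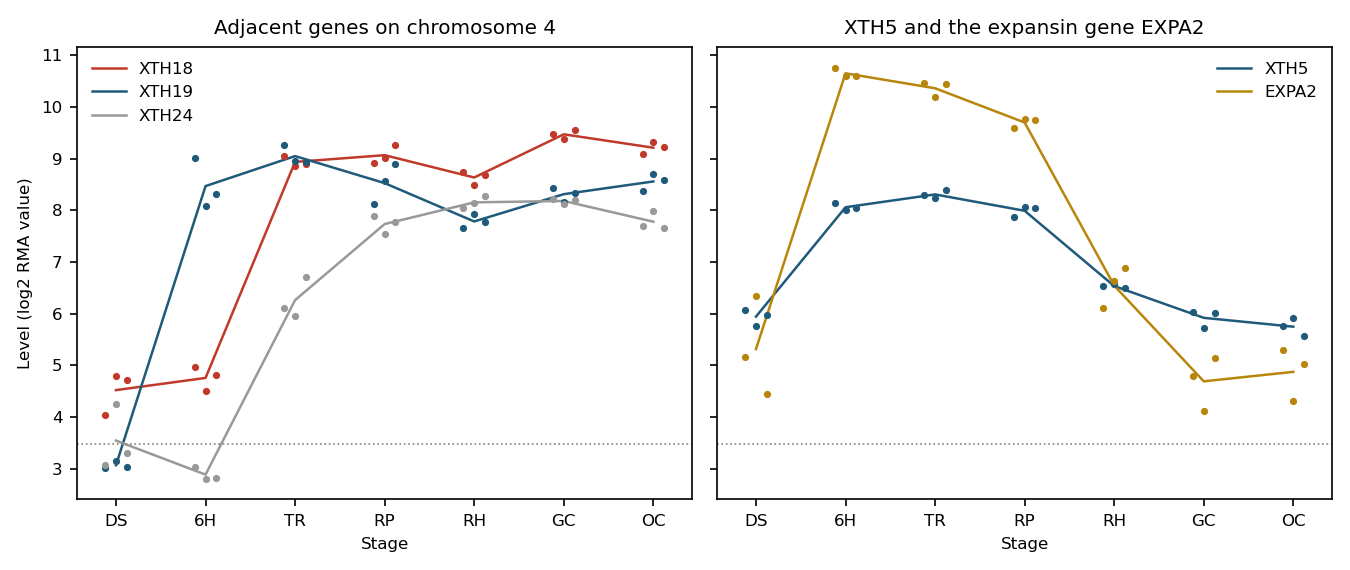
Level (log2 RMA value, vertical axis) at the 7 stages (horizontal axis) of the adjacent genes XTH18, XTH19 and XTH24 (left) and of XTH5 and the expansin gene EXPA2 (right). Points are single arrays, lines join stage means, and the dotted line is the 30th percentile of all values. XTH19 is up by 6H while XTH18 and XTH24 are up from TR, and XTH5 and EXPA2 are both high from 6H to RP. Heights of different genes come from different probes and are not comparable.

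XTH5, an endotransglucosylase gene, was high from 6H to RP and lower before and after. Its arrays read 6.08, 5.77 and 5.98 in DS, 8.14, 8.01 and 8.04 at 6H, 8.29, 8.24 and 8.40 at TR, 7.87, 8.06 and 8.04 at RP, 6.53, 6.58 and 6.50 at RH, 6.04, 5.71 and 6.01 at GC and 5.77, 5.92 and 5.56 at OC. The arrays of 6H, TR and RP all lay above those of the other 4 stages. XTH5 rose by 2.12 ± 0.12 to 6H (4.34-fold, adjusted p = 6e-12), fell by 1.46 ± 0.12 from RP to RH (adjusted p = 1.2e-08) and fell by 0.62 ± 0.12 from RH to GC (adjusted p = 0.00073). TR, 6H and RP did not differ between neighbours, nor did DS, GC and OC, and the change from DS to OC was -0.20 ± 0.12 (95% interval -0.44 to 0.05, adjusted p = 0.13). That change passed under 8 of the alternatives, among them a further quantile normalisation (-0.41), centring arrays on their median (-0.73) or on reference genes (-0.33), and the omission of DS replicate 2 (-0.28) or OC replicate 2 (-0.28).

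The gene whose 7 stage means were most like those of XTH5, among 9613 genes that changed with a range of at least 2, was EXPA2 (Pearson r = 0.992). EXPA2 encodes an expansin known from the endosperm of germinating seeds. It stood at 5.31 ± 0.96 in DS, 10.65 ± 0.10 at 6H, 10.37 ± 0.15 at TR, 9.70 ± 0.09 at RP, 6.54 ± 0.40 at RH, 4.69 ± 0.52 at GC and 4.87 ± 0.51 at OC. Of the 8 endosperm markers in the list only EXPA2 fell at least 2-fold from RP to RH, and EPR1, an extensin-like gene of the endosperm, fell by less, with 8.43 ± 0.10 at RH against 9.32 ± 0.13 at RP. The sum of the log2 levels of the 8 markers, EXPA2 included, lay between 32.4 and 33.6 at RH and between 36.2 and 38.0 at RP. Such a sum is not a total of transcripts. Its drop rests largely on EXPA2 (-3.16 from RP to RH), the gene named here for its likeness to XTH5. Of the 8 markers 6 were below the floor at both stages. Their part in the course of XTH5 was not tested.

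XTH33, which encodes an XTH with a predicted membrane anchor, had a short peak at testa rupture. Its arrays read 2.68, 3.22 and 2.96 in DS, 6.54, 5.47 and 4.89 at 6H, 6.90, 6.45 and 6.60 at TR, 4.86, 4.66 and 5.42 at RP, 4.14, 4.16 and 3.40 at RH, 3.89, 5.30 and 4.46 at GC and 5.38, 5.24 and 5.31 at OC. The TR arrays overlapped those of 6H and lay above those of every other stage, and the SD reached 0.84 at 6H. XTH33 rose by 2.68 ± 0.35 to 6H (6.42-fold, adjusted p = 1.3e-06) and fell by 1.67 ± 0.35 from TR to RP (adjusted p = 0.0022). A rise of 1.02 ± 0.35 from 6H to TR (adjusted p = 0.02) had overlapping arrays and did not pass without 6H replicate 2 (0.94), 6H replicate 3 (0.64) or TR replicate 1 (0.89). A fall of 1.08 ± 0.35 from RP to RH (adjusted p = 0.029) did not pass without RP replicate 1 (-1.14), RP replicate 3 (-0.86) or RH replicate 3 (-0.83).

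XTH2 was the exception among the 10, near the floor at 5 of the 7 stages and highest at root hair formation. Its arrays read 2.93, 2.70 and 3.01 in DS, 2.62, 2.81 and 2.90 at 6H, 2.89, 3.23 and 3.25 at TR, 4.50, 3.61 and 4.03 at RP, 5.31, 5.46 and 5.05 at RH, 2.69, 3.12 and 2.85 at GC and 2.72, 3.0 and 2.79 at OC. The RH arrays lay above all others, and the RP arrays above those of the remaining 5 stages. XTH2 rose by 0.92 ± 0.18 from TR to RP (adjusted p = 0.0014) and by 1.22 ± 0.18 from RP to RH (2.34-fold, adjusted p = 4.4e-05), then fell by 2.39 ± 0.18 from RH to GC (5.23-fold, adjusted p = 2.9e-08). Its neighbour on chromosome 4, XTH1, was below the floor at every stage and did not pass in any step.

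XTH2 was chosen as an XTH outside root hairs, and its rise coincided with that of root hair genes. Of 8 root hair markers 7 rose at least 2-fold from RP to RH, against 3.65% of all genes. The sum of the log2 levels of the 8 lay between 63.0 and 64.3 at RH and between 31.8 and 35.0 at RP. From RH to GC, where XTH2 fell, none of the 8 fell, while 10.9% of all genes fell on the adjusted p alone. The log2 levels of the 8 summed to between 64.7 and 65.9 at GC. The root hair XTH genes XTH12, XTH13, XTH14 and XTH26 all rose from RP to RH, by 4.60 to 6.08, and had stage means between 7.60 and 9.51 at GC. From RH to GC 2 of these 4 fell, against 10.9% of all genes. XTH13 fell by 0.93 ± 0.23 (adjusted p = 0.0063) and XTH26 by 0.41 ± 0.13 (adjusted p = 0.025).

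The rest of the family was counted by list, beside the shares of all genes given above. From DS to 6H the 4 root hair XTHs all fell, by 0.59 to 0.97, to levels below the floor. XTH13 was below the floor at both stages (3.25 in DS, 2.58 at 6H). XTH12, XTH14 and XTH26 stood at 4.01, 3.68 and 3.65 in DS, so their falls are lower bounds from levels not far above the floor. After a further quantile normalisation only 1 of them fell, while centring arrays on their median gave 2 falls of at least 2-fold and centring on reference genes gave 1. In the same step 3 of the 19 other XTHs rose and 8 fell, 1 and 2 of them at least 2-fold. Of the 19, 9 had means below the floor in DS and 12 at 6H, so small falls here lie in part near the floor. Falls of at least 2-fold numbered 6 with median centring, 4 with centring by reference genes and 1 after quantile normalisation. In the step from 6H to TR 9 of these 19 rose and 2 fell, 8 and 2 of them at least 2-fold. XTH23 (XTR6) rose by 4.42 ± 0.15 and XTH17 by 3.65 ± 0.27, while XTH25 fell by 3.51 ± 0.35 and XTH11 fell by 2.89 ± 0.17. XTH25 fell in both steps in which most of the 10 genes described here rose, with 11.30 ± 0.11 in DS, 8.29 ± 0.59 at 6H and 4.79 ± 0.25 at TR.

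Most genes for trimming of xyloglucan rose from DS to 6H, and genes for its synthesis rose and fell in shares near those of all genes. Of 5 trimming genes 4 rose at least 2-fold from DS to 6H, against 14.6% of all genes, and the list had a median change of 3.20. Among the 4 were the alpha-xylosidase gene XYL1 (3.74 ± 0.11) and the beta-galactosidase gene BGAL10 (3.51 ± 0.17). The fifth, the beta-glucosidase gene AT5G04885, fell by 0.26 ± 0.11 (adjusted p = 0.047), with 7.79 ± 0.16 at 6H against 8.04 ± 0.08 in DS. From GC to OC 4 of the 5 fell, 1 of them at least 2-fold, against 17.9% and 3.02% of all genes. Of 14 synthesis genes 3 rose and 1 fell at least 2-fold from DS to 6H, against 14.6% and 10.7% of all genes. On the adjusted p alone 5 of the 14 rose and 6 fell, against 29.6% and 40% of all genes. The list had a median change of -0.20, and 2 genes fell at least 2-fold with median centring. CSLC4 (CSLC04), a synthase of the glucan backbone, rose by 4.12 ± 0.18 and its paralog CSLC6 by 2.16 ± 0.16, while XLT2 (GT18), a galactosyltransferase of the side chains, fell by 3.56 ± 0.12. The DS mean of CSLC4 (3.42) was below the floor, so its rise is a lower bound. The xylosyltransferase gene XXT2 (XT2) fell by 0.66 ± 0.11.

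Of 19 alpha-expansin genes 9 rose at least 2-fold from DS to 6H and none fell so far, against 14.6% and 10.7% of all genes. On the adjusted p alone 10 of the 19 rose and 6 fell, against 29.6% and 40% of all genes. EXPA10 rose by 6.66 ± 0.18 and EXPA1 by 5.87 ± 0.19, whereas EXPA16 fell by 0.78 ± 0.15 and EXPA18 fell by 0.62 ± 0.20. EXPA16 was below the floor at both stages (3.19 in DS, 2.40 at 6H), and EXPA18 (3.68 in DS) was below it at 6H (3.06). The falls depended on the scaling. After a further quantile normalisation 2 of the 19 fell, and 9 fell on arrays centred on their median or on reference genes. From RP to RH 3 of the 19 rose and 2 fell at least 2-fold, against 3.65% and 1.74% of all genes. Whether the expansin and XTH lists differ in any step was not tested.

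**Figure D5:**
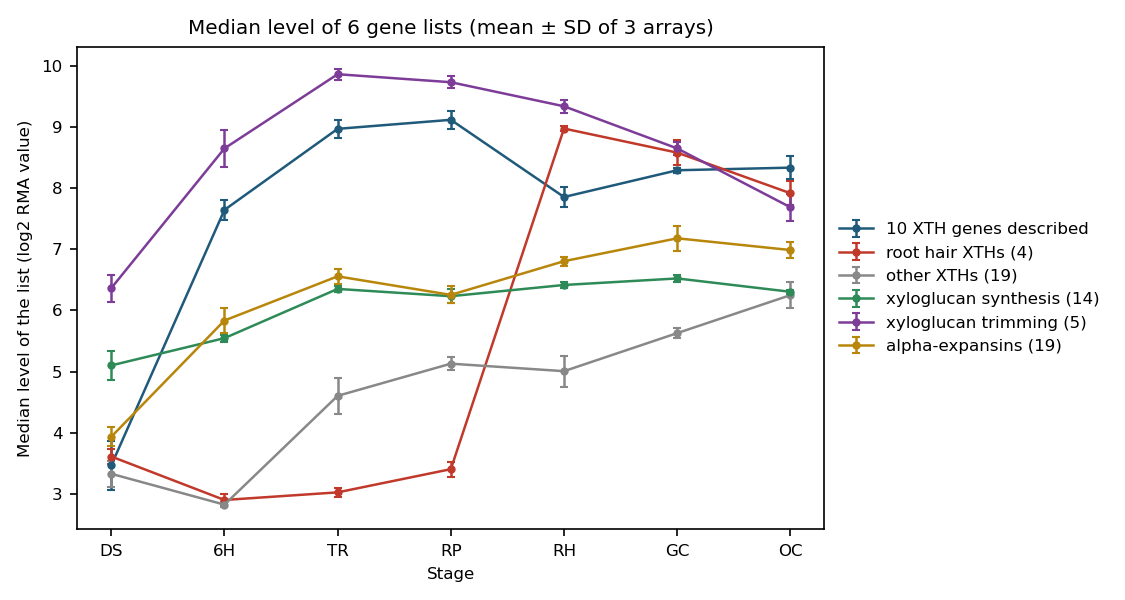
Median level (log2 RMA value, vertical axis) of the 10 XTH genes and of 5 other gene lists at the 7 stages (horizontal axis), as mean ± SD of the 3 array medians. The 10 XTH genes climb between DS and TR, dip at RH and level off, and the 4 root hair XTHs climb between RP and RH. Courses can be compared between lists, and heights cannot, since the probes differ.

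Likeness of course was measured as the Pearson correlation of 7 stage means with each of 9613 changing genes, which share the 21 arrays. For genes with an early rise and a flat plateau it singled out little, since 697 genes correlated above 0.95 with XTH4, 563 with XTH31 and 540 with XTH9. The closest to XTH9 was the beta-tubulin gene TUB3 (r = 0.9995), and the closest to XTH4 were AT3G28040 and the auxin response repressor gene IAA16 (r = 0.9985). XTH31 was closest to SEX1, of starch breakdown, and PDCB3, a callose-binding protein gene of plasmodesmata (r = 0.998 for each). XTH18 was closest to PP2-A5 and AT3G54250, XTH19 to AT1G69420 and AT1G23410, and XTH16 to NEK6 and AT4G29520 (r from 0.9946 to 0.9979).

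Courses with a dip or a peak had fewer like genes. For XTH15 18 genes passed 0.95, led by MYC4, a transcription factor gene of jasmonate signalling (r = 0.9923), and AT4G02940. For XTH33 2 did, UMAMIT30 (r = 0.9806) of a transporter family and DOF6, a Dof transcription factor gene (r = 0.9551). For XTH5 54 did, with EXPA2 followed by AT3G22100 (r = 0.9879). None did for XTH2, whose closest genes were AT5G03890 (r = 0.8979) and AT1G26290 (r = 0.8578). Among the 10 genes themselves the 45 pairwise values ran from -0.267 for XTH2 with XTH33 to 0.993 for XTH9 with XTH31.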

How the data were processed

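The authors deposited log2 values of 35986 probe sets for 21 arrays, and the submitters' processing notes name RMA, whose version the sources used here do not name, nor the array platform and annotation release. From these, probe sets of a locus were averaged, and 215 with values identical to another locus were left out, which left 27789 genes. Gene names come from the reference table of assembly TAIR10.1, which held 27175 of the measured loci and gave a symbol for 10537. One limma 3.58.1 model (R 4.3.3) took 1 mean for each stage (14 residual degrees of freedom) over all genes, and each pair of stages was tested 2-sided with Benjamini-Hochberg adjustment over all genes. The pipeline was tested on simulated data. Alternatives changed the scaling, the filter on dim genes, the variance prior, array weights, probe set choice, the arrays fitted, the fold threshold and the replicate term. The 2 omissions of a pair of arrays were added after seeing the data. The 10 genes and the lists were chosen with earlier results of these data known. All 10 genes were named throughout, as were the 2 largest rises and falls of a list in its step with most changes and the 2 genes of most like course. The number of arrays limits the precision. No protein or promoter sequence was used here, and a planned motif search was not run.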

Additional observations from a re-analysis of the deposited data

How the results depend on the processing

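Of the 38 changes that passed among 70 (10 genes in 7 comparisons), 32 passed with the same sign under all 33 alternatives that refit a change. The other 6, of XTH4, XTH9, XTH19 and XTH33, lost the call under a scaling or without 1 array as given above, and none that passed changed sign. Changes that did not pass and changed sign were those of XTH2 from DS to 6H (0.29) and from DS to OC (0.13) after a further quantile normalisation, of XTH2 from GC to OC on arrays centred on reference genes (0.12), and of XTH18 from DS to 6H (-0.0654 after quantile normalisation, -0.13 on median-centred arrays, -0.0136 on arrays centred on reference genes). Without 1 array at a time the change ran from -0.147 to 0.0714 for XTH2 from GC to OC, from -0.133 to 0.024 for XTH2 from DS to OC, from -0.05 to 0.163 for XTH15 from TR to RP and from -6e-04 to 0.370 for XTH18 from DS to 6H. Of 32 changes that did not pass, 13 passed under at least 1 alternative, most often that of XTH4 from TR to RP (10 alternatives) and that of XTH5 from DS to OC (8). The cause was not tested.

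The count of genes changed at least 2-fold kept within 1.5 times under every scaling, filter, prior, weight and probe set choice. With limma's treat it was 3 from 6H to TR, 0 in TR to RP, 2 in RP to RH and 0 in GC to OC, and with a log2 change of at least 2 it was 2, 0, 1 and 0 in these steps. With the adjusted p alone it was 2 in TR to RP, 3 in RH to GC and 3 in GC to OC. Without 1 array at a time it ran from 8 to 8 from DS to 6H, 4 to 6 from 6H to TR, 1 to 2 in TR to RP, 4 to 5 in RP to RH, 1 to 1 in RH to GC and 1 to 2 in GC to OC. The 2 came without RP replicate 2 and without GC replicate 2.

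Centring on the median of all genes moved the median of all genes from DS to 6H to -0.60, against -0.23, and on it 2457 genes rose and 6159 fell at least 2-fold in that step, against 4070 and 2965. On arrays centred on reference genes the split was 2925 and 4724 there, and 2029 and 559 from GC to OC, against 1504 and 840. From DS to OC it was 4739 and 10415 on median-centred arrays, against 6424 and 5992. The replicate block changed no call of the 70. Arrays of the same number in different stages deviated together with a median r of 0.009, and 7 of 21 arrays correlated best with their own number, so the numbers were not taken as pairs. Changes from levels near the floor are limited by the signal over background.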
